A study of Mus musculus with 12 samples.

Results

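The 10 genes described here encode proteins of elastic fibres and the small proteoglycans that coat collagen: Eln, Fbn1, Fbln1, Fbln5, Mfap4, Efemp1, Dpt, Dcn, Lum and Bgn. They were listed by name, without a threshold on measured values but with earlier results of these data known, from 52636 genes counted in the livers of 12 male C57Bl/6J mice at 16 weeks of age, and all 10 were among the 12453 genes tested. The VDD-F1 group held 6 mice born to mothers on a diet without vitamin D, supplemented with calcium gluconate, from before mating to delivery. The VDS-F1 group held 6 mice born to mothers on the matched vitamin D sufficient diet, and the offspring of both groups ate the sufficient diet after weaning. Each mouse gave 1 library of total RNA, depleted of ribosomal RNA, from the left lateral lobe of the liver, a bulk tissue of many cell types. Which litter each mouse came from is not given in the sources used here, so the spread between mice may hold a spread between litters.

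Elastic fibres have a core of cross-linked elastin, which forms on a scaffold of fibrillin microfibrils with the help of fibulins and is joined by lysyl oxidases. Small leucine-rich proteoglycans such as decorin, lumican and biglycan bind collagen fibrils and set their spacing, and several of them bind TGF-beta. In liver these proteins lie mainly around portal tracts and vessels and in the capsule, made by portal fibroblasts, vascular smooth muscle and hepatic stellate cells, and elastin builds up in fibrotic scars.

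All 10 genes were higher in the mean of the VDD-F1 mice, from 1.12-fold for Efemp1 to 4.90-fold for Mfap4, but none passed the test over all genes in the 12 mice. For 7 of the genes (Eln, Fbn1, Fbln1, Fbln5, Mfap4, Dpt and Bgn) VDD2, VDD4, VDD5 and VDD6 lay above every VDS-F1 mouse, while VDD1 lay in, under or just above the VDS-F1 range. The test was edgeR's quasi-likelihood test with an adjusted p under 0.05 and a log2-fold change past 1, and it called 5 of 12453 genes, or 0.0402%. An unadjusted p under 0.05 with a higher level in VDD-F1 was reached by 9 of the 10 genes, against 9.55% of all genes. In bulk tissue, more cells of a type and more RNA per cell cannot be told apart. The median log2-fold change of the 10 genes was 1.30, where that of all genes tested was 0.0041.

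Positions are on GRCm38 (GENCODE M21). Eln lies on chr5:134702593-134747323, Fbn1 on chr2:125300594-125507993, Fbln1 on chr15:85205949-85286535, Fbln5 on chr12:101746565-101819055 and Mfap4 on chr11:61485431-61488900. Efemp1 lies on chr11:28853204-28926743, Dpt on chr1:164796644-164824266 and Bgn on chrX:73483602-73495933. Dcn, on chr10:97479609-97518143, and Lum, on chr10:97565128-97572703, are neighbours on the same strand, 46984 bases apart. Eln, Fbn1, Mfap4 and Dpt overlap another gene on the opposite strand, and none of the 10 overlaps one on its own strand. The count used reads 1 strand only, and the opposite strand held between 0.158% (Dcn) and 1.57% (Mfap4) of the stranded counts of each gene.

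RefSeq promoter windows on GRCm38.p6, each with 250 bases before and 50 after a start site, were at hand for 6 of the 10 genes (8 windows). Those of Fbn1, Dpt, Bgn and Efemp1 are shown, so that the start regions of genes with larger and smaller differences can be read side by side. Capitals mark matches to 5 short motifs on either strand. The TATA box was searched as TATAAA. The GC box, bound by SP1 factors, was searched as GGGCGG. The site of the AP-1 factors was searched as TGANTCA. The half-site of the SMAD factors, which carry the TGF-beta signal, was searched as CAGAC. The half-site of nuclear receptors was searched as AGGTCA. Each sequence reads 5′ to 3′ along the gene, with Fbn1 from chr2:125506389-125506688 (minus strand), Dpt from chr1:164796413-164796712, Bgn from chrX:73483351-73483650 and Efemp1 from chr11:28852955-28853254 (plus strand).
Fbn1: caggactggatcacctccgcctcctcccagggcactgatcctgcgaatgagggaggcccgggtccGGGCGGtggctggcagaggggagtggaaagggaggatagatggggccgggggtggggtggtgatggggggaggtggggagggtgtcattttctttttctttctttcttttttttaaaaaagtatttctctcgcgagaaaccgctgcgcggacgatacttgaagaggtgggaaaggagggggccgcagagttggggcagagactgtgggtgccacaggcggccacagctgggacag
Dpt: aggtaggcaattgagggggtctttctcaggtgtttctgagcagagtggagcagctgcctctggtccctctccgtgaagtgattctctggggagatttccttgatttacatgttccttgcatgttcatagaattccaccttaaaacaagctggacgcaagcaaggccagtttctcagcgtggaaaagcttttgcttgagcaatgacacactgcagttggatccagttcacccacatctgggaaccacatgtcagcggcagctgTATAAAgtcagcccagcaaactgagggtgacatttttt
Bgn: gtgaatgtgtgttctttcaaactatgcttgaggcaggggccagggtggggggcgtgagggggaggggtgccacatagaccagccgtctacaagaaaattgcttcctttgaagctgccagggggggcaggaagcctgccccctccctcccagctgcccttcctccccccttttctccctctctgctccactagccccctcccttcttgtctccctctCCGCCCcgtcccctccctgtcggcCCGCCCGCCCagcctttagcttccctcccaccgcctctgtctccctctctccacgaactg
Efemp1: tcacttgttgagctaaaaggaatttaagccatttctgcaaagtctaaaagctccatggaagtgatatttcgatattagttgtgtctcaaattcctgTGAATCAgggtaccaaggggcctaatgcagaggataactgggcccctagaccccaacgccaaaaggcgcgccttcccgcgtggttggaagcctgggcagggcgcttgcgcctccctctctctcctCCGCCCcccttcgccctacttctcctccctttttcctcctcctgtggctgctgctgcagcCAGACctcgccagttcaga

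The windows shared no single motif. GGGCGG was found in 5 of the 8 windows and in 35.7% of the 32851 windows of all genes, and CAGAC in 5 windows and in 49.6% of all. The 2 windows of Fbln1 overlap each other and hold the same 2 CAGAC matches, which are thus counted in both. TATAAA was found in the Dpt window alone (13.6% of all), TGANTCA in that of Efemp1 alone (7.81%) and AGGTCA in 1 of the windows of Fbln5 alone (16.3%). The TATAAA match of Dpt begins at base 13 after the start site of its window, not before it. Neither the DR3 type of vitamin D response element nor the CArG box was found in any of the 8 windows, and they were found in 0.0396% and 1.63% of all windows. GGGCGG overlaps itself in the Bgn window, where it was found 3 times. The GC content ran from 48.7% in Dpt and in 1 window of Fbln5 to 65.7% in the other window of Fbln5, with a median of 52.7% over all windows.

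Eln and Mfap4 had the largest fold changes of the 10 genes. Eln encodes tropoelastin, the soluble unit of the elastic core. In VDD-F1, Eln was at 1.45, 13.7 and 26.5 CPM (TMM-normalised counts scaled to library size) in the lowest, median and highest mouse. In VDS-F1 it was at 1.65, 2.56 and 4.36 CPM. VDD2, VDD4, VDD5 and VDD6 lay above every VDS-F1 mouse, VDD3 lay inside their range, and VDD1 was the lowest of the 12. The log2-fold change was 2.18 ± 0.53 (SE, edgeR adjusted p = 0.0917).

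Mfap4, a microfibril-associated glycoprotein that binds elastin and fibrillin, was at 1.13, 5.40 and 7.97 CPM in the lowest, median and highest VDD-F1 mouse and at 0.623, 0.812 and 1.82 CPM in VDS-F1. In VDD-F1 5 mice lay above every VDS-F1 mouse, and VDD3 did not. The log2-fold change was 2.29 ± 0.46 (SE, edgeR adjusted p = 0.0683). With 10 to 153 counts per library, Mfap4 and Fbln1 had the fewest reads of the 10 genes.

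Fbn1 encodes fibrillin-1, the backbone of the microfibril. It stood at 8.13, 18.5 and 36.8 CPM in VDD-F1 and at 7.41, 8.55 and 9.29 CPM in VDS-F1. The VDS-F1 mice lay close together (8.44 ± 0.751 CPM, SD, n = 6), whereas the VDD-F1 mice were spread widely (18.8 ± 10.3 CPM, SD, n = 6). VDD1 was inside the VDS-F1 range and VDD3, at 9.40 CPM, was just above it. The log2-fold change was 1.16 ± 0.29 (SE, edgeR adjusted p = 0.0958).

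Of the 3 fibulins, Fbln1 and Fbln5 had an unadjusted p under 0.05 and Efemp1 did not, and the difference between them was not tested. Fbln1 encodes fibulin-1, a binding partner of elastin and of basement membrane proteins. It was at 1.13, 3.70 and 7.13 CPM in VDD-F1 and at 0.686, 1.23 and 1.71 CPM in VDS-F1, with 5 VDD-F1 mice above every VDS-F1 mouse and VDD1 inside their range. Its log2-fold change was 1.65 ± 0.38 (SE, edgeR adjusted p = 0.0855).

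Fbln5 encodes fibulin-5, which is needed for elastic fibre assembly. It was at 3.09, 12 and 15.8 CPM in VDD-F1 and at 2.75, 4.79 and 10.8 CPM in VDS-F1. VDS1 was the highest VDS-F1 mouse and lay above VDD1 and VDD3. The log2-fold change was 1.03 ± 0.37 (SE, edgeR adjusted p = 0.203).

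Efemp1 encodes fibulin-3, and its groups lay nearly on top of each other. It was at 7.50, 10.02 and 15.8 CPM in VDD-F1 and at 5.83, 8.88 and 15.04 CPM in VDS-F1. The log2-fold change was 0.17 ± 0.23 (SE, edgeR adjusted p = 0.773). It was the 1 gene of the 10 with an unadjusted p over 0.05.

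Dpt encodes dermatopontin, a small matrix protein that binds decorin and collagen. It was at 1.64, 12.5 and 22.3 CPM in VDD-F1 and at 0.892, 1.84 and 6.95 CPM in VDS-F1. VDD2, VDD4, VDD5 and VDD6, at 11.9 to 22.3 CPM, lay above the highest VDS-F1 mouse, VDS1. The log2-fold change was 2.04 ± 0.58 (SE, edgeR adjusted p = 0.118).

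Among the leucine-rich proteoglycans, Lum had the larger ratio and Dcn and Bgn the higher levels. Lum, which encodes lumican, was at 4.47, 11.6 and 31.6 CPM in VDD-F1 and at 2.81, 3.29 and 12.1 CPM in VDS-F1. Only VDD2 and VDD4 lay above VDS1, and the other 5 VDS-F1 mice lay below every VDD-F1 mouse. The log2-fold change of Lum was 1.43 ± 0.47 (SE, edgeR adjusted p = 0.161).

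Bgn encodes biglycan, which can also act as a danger signal when it is released from the matrix. It was at 80.3, 185 and 278 CPM in VDD-F1 and at 92.1, 98.8 and 124 CPM in VDS-F1. VDD1 was below every VDS-F1 mouse and the other 5 VDD-F1 mice were above every one. The log2-fold change of Bgn was 0.79 ± 0.23 (SE, edgeR adjusted p = 0.125).

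Dcn encodes decorin, which binds collagen and TGF-beta. It was at 115, 140 and 199 CPM in VDD-F1 and at 83.9, 107 and 163 CPM in VDS-F1. VDD2 alone lay above VDS1, and the lowest VDD-F1 mouse was above the median of VDS-F1. The log2-fold change of Dcn was 0.39 ± 0.16 (SE, edgeR adjusted p = 0.266). Whether it differed from that of its neighbour Lum was not tested.

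**Figure D1:**
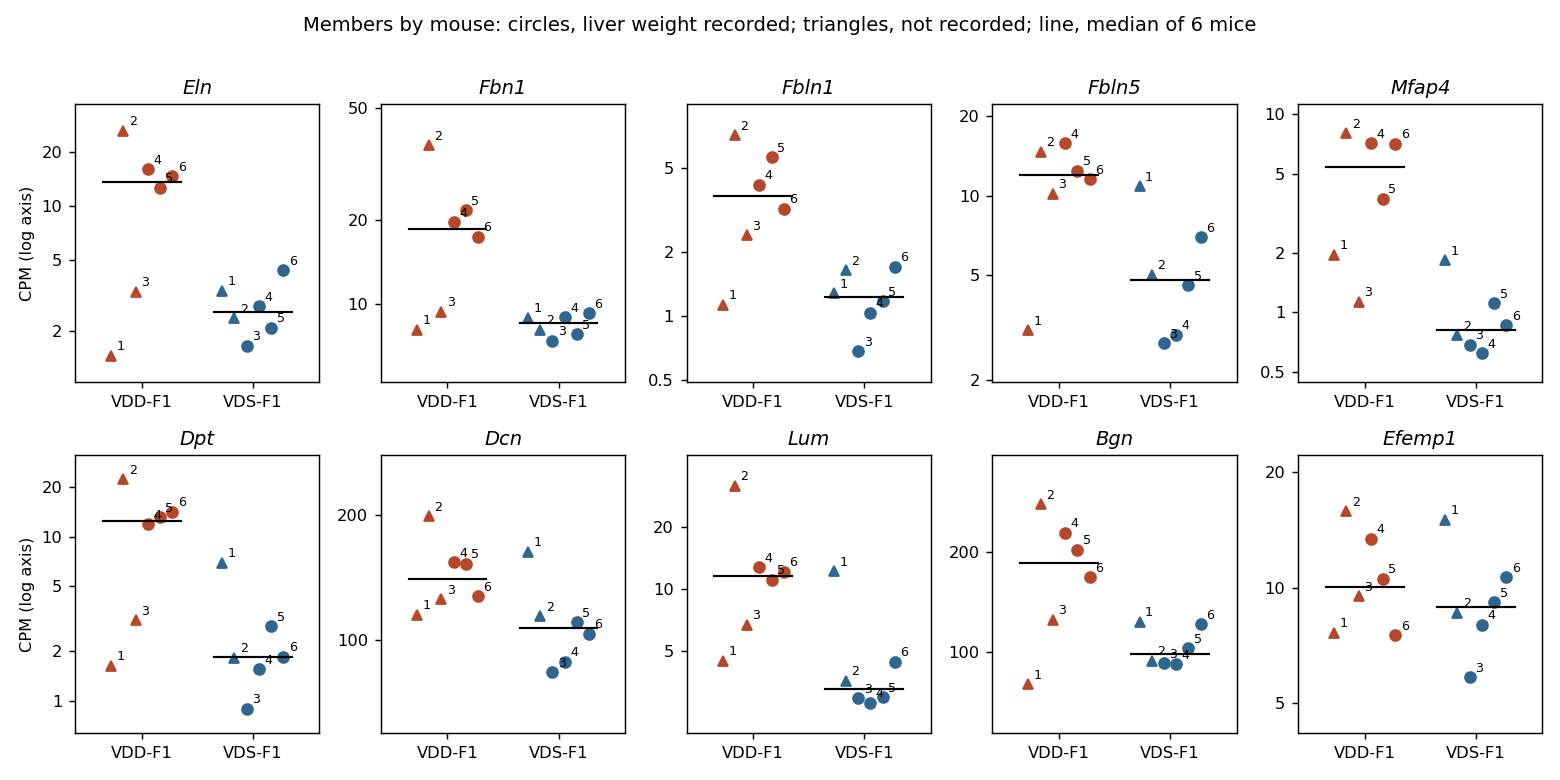
CPM of each gene (vertical log axis) in each of 6 VDD-F1 and 6 VDS-F1 mice, numbered as in the labels, with the group median as a line. VDD2, VDD4, VDD5 and VDD6 lie above the VDS-F1 median in every panel but that of Efemp1, where VDD6 is below it, and VDD1 lies in or under the VDS-F1 range in every panel but that of Mfap4.

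The same mice were high or low for most of the 10 genes. VDD2 was the highest of the 12 mice for 9 genes, and VDD4 was for Fbln5. VDD2 lay above every VDS-F1 mouse for all 10 genes, VDD4 for 8, and VDD5 and VDD6 for 7 each. VDD3 did so for 3 genes (Fbn1, Fbln1 and Bgn) and VDD1 for 1 (Mfap4). VDD1 was below every VDS-F1 mouse for Eln and Bgn. On the VDS-F1 side, VDS3 was the lowest of the 12 for 6 genes and VDS4 for 2, while VDS1 lay above the lowest VDD-F1 mouse for all 10. The groups overlapped for all 10 genes, where 76 of the 12453 genes tested had every VDD-F1 mouse above every VDS-F1 mouse (0.610%). Without VDD1, every VDD-F1 mouse lay above every VDS-F1 mouse for 3 of the 10 genes, against 1.80% of all genes tested. It did so for 3 without VDS1, against 1.13%, and for 1 without VDD3, against 1.05%.

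Per length of exon (CPM per kilobase of exon, FPKM), the proteoglycans Dcn and Bgn were the most abundant of the 10 in both groups. In VDS-F1, Dcn was at 19.0 ± 4.87 FPKM and Bgn at 17.1 ± 2.36 FPKM (SD, n = 6), and their ranges overlapped. Efemp1 followed at 4.69 ± 1.53 FPKM, and its highest mouse, at 7.38 FPKM, was below the lowest mouse for Bgn, at 15.1 FPKM. Each of the other neighbours in the order, Efemp1, Lum, Dpt, Fbln5, Fbn1, Mfap4, Eln and Fbln1, overlapped the next in range.

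Eln and Fbln1 were the least abundant in VDS-F1, at 0.341 ± 0.121 and 0.288 ± 0.0883 FPKM (SD, n = 6). In VDD-F1 the order of the means began with Bgn (29.6 ± 11.7 FPKM), Dcn (25.0 ± 5.18 FPKM) and Dpt (6.39 ± 4.44 FPKM). Dpt thus stood in the third place in VDD-F1 and behind Efemp1 and Lum in VDS-F1, with ranges that overlapped in both groups.

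**Figure D2:**
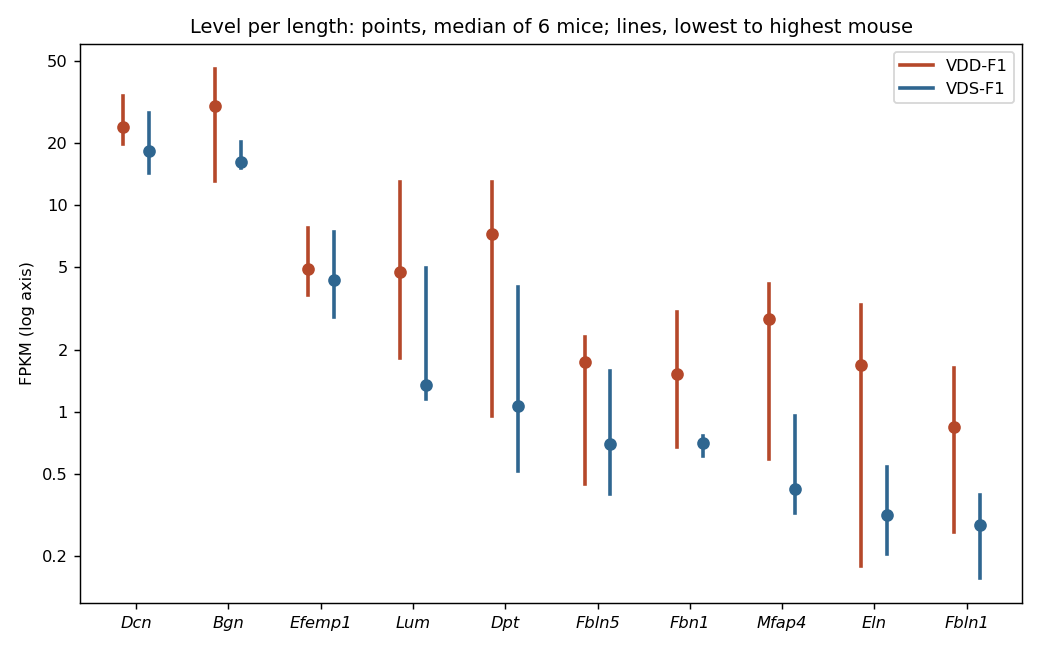
FPKM of the 10 genes (vertical log axis), ordered by their mean in VDS-F1, with the median as a point and the lowest to the highest of 6 mice as a line for each group. Dcn and Bgn lie above the other 8 genes in VDS-F1, and the lines of VDD-F1 are longer than those of VDS-F1 for every gene but Dcn and Efemp1.

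The calls depended on the test and on which mice were included. DESeq2's Wald test on the same 12 mice called 5 of the 10 genes higher in VDD-F1, where it called 1.75% of all genes higher. These were Mfap4 (adjusted p = 0.000171), Fbln1 (0.00327), Fbn1 (0.00654), Eln (0.0113) and Dpt (0.042). Bgn had a DESeq2 adjusted p = 0.0254 with a log2-fold change of 0.79, under the threshold of 1. In limma's voom with sample quality weights, 6 genes were called, against 1.45% of all genes. With edgeR and no filter on low counts, Eln and Mfap4 were called, against 0.226% of 24759 genes.

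Leaving out VDD1 gave 6 calls by edgeR (Eln, Fbn1, Fbln1, Fbln5, Mfap4 and Dpt), against 1.70% of all genes called higher. Leaving out VDD3 gave 4 (Eln, Fbn1, Fbln1 and Mfap4), against 0.584%. Leaving out VDD2, the highest mouse, gave none and a median log2-fold change of 0.95 over the 10 genes, in a fit that called 0.00808% of 12369 genes higher.

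The study's histology records a liver weight for 7 of the 12 mice, namely VDD4, VDD5, VDD6, VDS3, VDS4, VDS5 and VDS6. The labels do not say whether these sets were processed apart, so the comparison was also made within each. In the 7 mice, every VDD-F1 mouse lay above every VDS-F1 mouse for 9 of the 10 genes, where that held for 12% of all genes tested. In these mice edgeR called 7 genes higher in VDD-F1, against 3.07% of 12369 genes.

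The 7 genes called in these mice were Dpt (log2-fold change 2.87 ± 0.27, edgeR adjusted p = 5.71e-05), Mfap4 (2.87 ± 0.32), Eln (2.42 ± 0.26), Fbln1 (1.91 ± 0.32), Lum (1.87 ± 0.19), Fbln5 (1.63 ± 0.27) and Fbn1 (1.22 ± 0.13). Bgn (0.97 ± 0.12, edgeR adjusted p = 0.000522) and Dcn (0.58 ± 0.11, edgeR adjusted p = 0.00626) passed the adjusted p but not the size. Efemp1 did not pass, at 0.31 ± 0.23 (edgeR adjusted p = 0.433).

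In the other 5 mice, VDD2 was high and VDD1 and VDD3 were low, and no gene of the whole table was called by edgeR. None of the 10 genes had an unadjusted p under 0.05 in these 5 mice, where 2.05% of 12541 genes did so with a higher level in VDD-F1. None had every VDD-F1 mouse above both VDS-F1 mice, against 8.95% of genes. The log2-fold changes still ran up to 1.88 ± 1.16 (SE) for Eln, and that of Efemp1 was -0.10 ± 0.38 (SE).

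The difference between the sets was tested as an interaction of diet and set in edgeR. It had an unadjusted p over 0.05 for each of the 10 genes, against 9.01% of all genes under 0.05. Fbln5 came nearest, with an effect 1.4 ± 0.69 (SE) larger on the log2 scale in the 7 mice (edgeR adjusted p = 0.577). A p that misses the threshold does not show that the sets responded alike.

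**Figure D3:**
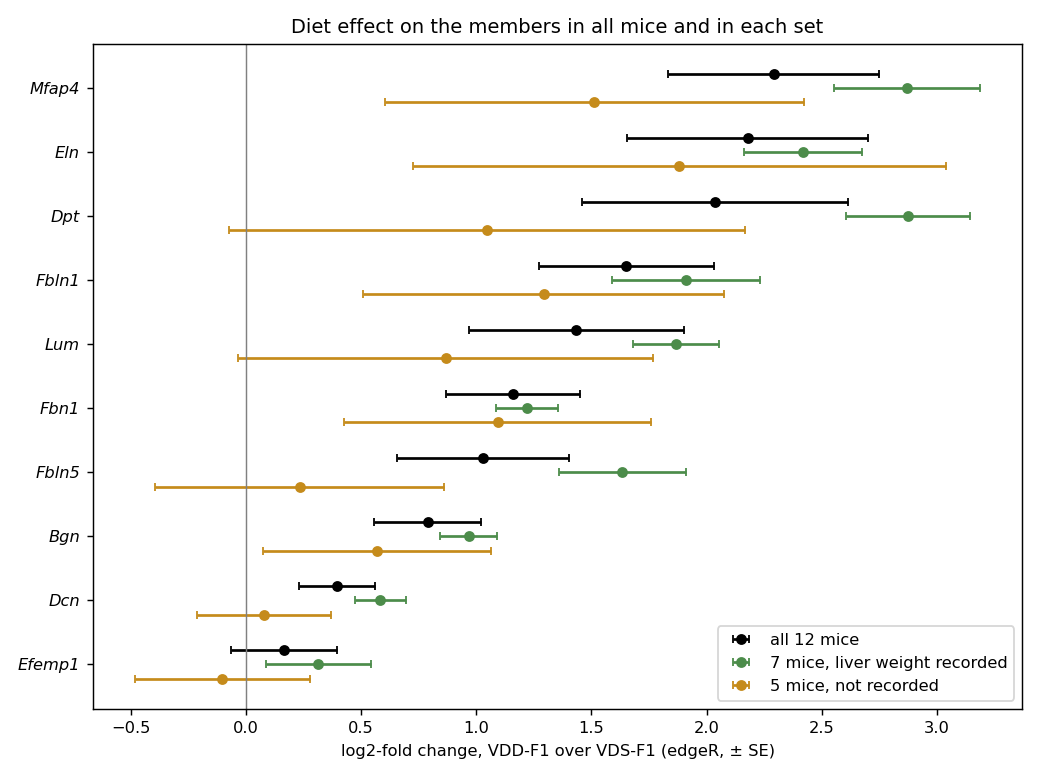
Log2-fold change of VDD-F1 over VDS-F1 (horizontal axis, edgeR, bars ± SE) of each gene in all 12 mice, in the 7 mice with a recorded liver weight and in the 5 without. The estimates of the 7 mice lie to the right of those of the 5 mice for all 10 genes, and the bars of the 5 mice are wider.

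Genes that work with these 10 were read from lists by role, and each count is to be set beside the shares of all genes given above. Of 13 microfibril genes and latent TGF-beta binding proteins, 9 could be tested, and 6 had an unadjusted p under 0.05 with a higher level in VDD-F1. DESeq2 called 4 of them higher, Ltbp2 (edgeR log2-fold change 2.80 ± 0.73, DESeq2 adjusted p = 0.0139), Adamtsl2 (1.88 ± 0.40, 0.00397), Ltbp3 (1.31 ± 0.29, 0.00215) and Ltbp1 (1.13 ± 0.38, 0.0483). VDD2 alone held much of the Ltbp2 value, at 21.7 CPM where the next mouse had 4.25, and without VDD2 its log2-fold change was 1.62 ± 0.47 (SE). The products of Ltbp1 and Ltbp3 tether latent TGF-beta to microfibrils, that of Ltbp2 binds fibrillin but not latent TGF-beta, and Adamtsl2 encodes a secreted protein that binds fibrillin.

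Of the 5 other fibulins and hemicentins, 4 were tested and 2 had a higher level at an unadjusted p under 0.05, with Fbln2 called by DESeq2 (edgeR log2-fold change 1.29 ± 0.35, DESeq2 adjusted p = 0.017). All 5 lysyl oxidases, the enzymes that cross-link elastin and collagen, were higher in mean and 4 had an unadjusted p under 0.05. Of these, DESeq2 called Loxl1 (1.77 ± 0.50, adjusted p = 0.0452), which acts on elastin. The median log2-fold change of the lysyl oxidases was 0.80.

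The other proteoglycans gave a mixed picture. Of 13 further small leucine-rich proteoglycan genes 7 were tested and 2 were higher at an unadjusted p under 0.05, of which DESeq2 called Ogn, which encodes osteoglycin (edgeR log2-fold change 1.19 ± 0.29, DESeq2 adjusted p = 0.00963). Tsku was the 1 gene of this list with a lower level at an unadjusted p under 0.05 (log2-fold change -0.93 ± 0.35, edgeR adjusted p = 0.225), against 6.29% of all genes, and it is named here after its values were seen. Tsku encodes tsukushi, a protein secreted by hepatocytes.

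Of 23 other proteoglycans, syndecans and glypicans, 14 were tested and 2 were higher and 1 lower at an unadjusted p under 0.05. DESeq2 called Esm1, an endothelial proteoglycan also named endocan (edgeR log2-fold change 2.27 ± 0.44, DESeq2 adjusted p = 0.000142). The median of this list was 0.25 on the log2 scale.

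Enzymes that cut elastin and genes of the TGF-beta pathway were read in the same way. Of 8 elastases, 5 were tested and 3 were higher at an unadjusted p under 0.05, and DESeq2 called Mmp12, the macrophage elastase (edgeR log2-fold change 3.75 ± 0.94, DESeq2 adjusted p = 0.00654). Mmp12 was at 17.2 CPM in VDD2 and at 2.31 in the next mouse, and without VDD2 its log2-fold change was 2.16 ± 0.61 (SE). Of 12 TGF-beta genes, all tested, 3 were higher at an unadjusted p under 0.05. DESeq2 called Thbs2, which encodes the matricellular protein thrombospondin-2 (1.43 ± 0.34, adjusted p = 0.0036). No gene of these 7 lists was called by edgeR, and their medians ran from 0.25 to 0.80.

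**Figure D4:**
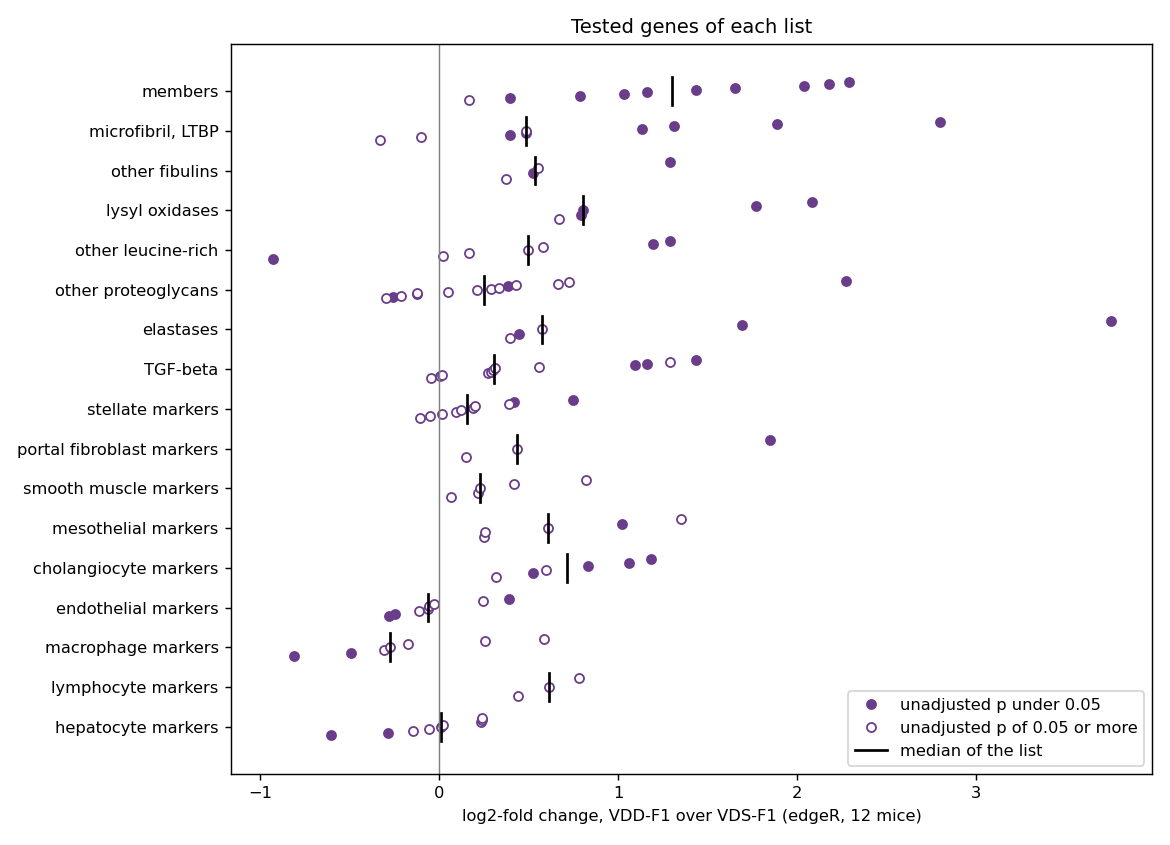
Log2-fold change of VDD-F1 over VDS-F1 (horizontal axis, edgeR, 12 mice) of each tested gene in the lists of matrix genes and of cell type markers, with filled points for an unadjusted p under 0.05 and a line at each list's median. The line of the 10 genes stands at 1.30 and those of the other matrix lists between 0.25 and 0.80.

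Markers of the cell types that could hold these transcripts were summed in each mouse. The 10 stellate cell markers summed to 235 to 410 CPM in VDD-F1 and to 247 to 289 CPM in VDS-F1, with VDD2 the highest. Among them Lhx2 (log2-fold change -0.11 ± 0.19) and Rgs5 (-0.05 ± 0.18) were the 2 that were lower in VDD-F1. Hand2 (0.42 ± 0.15, edgeR adjusted p = 0.199) and Pdgfrb (0.75 ± 0.31, edgeR adjusted p = 0.265) had the smallest p-values of those that were higher. None of the 10 was at 0 in any mouse.

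The summed level of the 7 portal fibroblast markers was above every VDS-F1 mouse in VDD2, VDD4, VDD5 and VDD6, and Cd34 held the largest part of it (5.18 of 9.29 CPM in the VDD-F1 mean). The sum was at 20.3 CPM in VDD2, 10.1 in VDD5, 8.85 in VDD6 and 8.36 in VDD4. It was at 4.82 CPM in VDD3, 3.40 in VDD1 and 3.94 to 5.93 in VDS-F1. VDS1, the VDS-F1 mouse with the highest sum of the 10 genes (347 CPM), had the lowest portal sum of that group. Only 3 of the 7 were tested, and DESeq2 called Cd34 (edgeR log2-fold change 1.85 ± 0.57, DESeq2 adjusted p = 0.0227), which endothelial cells also express. Thy1 was at 0.43 ± 0.39 and Entpd2 at 0.15 ± 0.39, both with an unadjusted p over 0.05. The other 4 (Pi16, Clec3b, Gli1 and Slit2) were at 0 in at least 1 mouse.

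The 6 cholangiocyte markers summed to 23.9 to 117 CPM in VDD-F1 and to 28.1 to 51.5 in VDS-F1, and 4 of them had an unadjusted p under 0.05 with a higher level, led by Spp1 (log2-fold change 0.83 ± 0.35) and Epcam (1.06 ± 0.46). The 6 mesothelial markers, with 2 at 0 in some mice, summed to 3.26 to 21.8 CPM in VDD-F1 and 2.33 to 13.0 in VDS-F1. VDD2 had the highest sum of both lists. Of the 5 mesothelial markers tested 1 was higher at an unadjusted p under 0.05, Gpm6a (1.02 ± 0.42), with Wt1 next (1.35 ± 0.64). The 6 smooth muscle markers, with 1 at 0 in some mice, summed to 15.6 to 35 and 12.5 to 33.5 CPM, and 0 of the 5 tested had an unadjusted p under 0.05, with Acta2 (0.82 ± 0.45) and Tagln (0.42 ± 0.35) nearest.

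The 8 endothelial markers summed to 224 to 277 CPM in VDD-F1 and 219 to 301 in VDS-F1. At an unadjusted p under 0.05, 2 of them were lower, Clec4g (log2-fold change -0.28 ± 0.09) and Stab2 (-0.25 ± 0.10), and 1 was higher, Lyve1 (0.39 ± 0.17), with Pecam1 (0.24 ± 0.11) next. The 7 macrophage markers summed to 128 to 327 CPM in VDD-F1 and 175 to 331 in VDS-F1. Of these, 2 were lower at an unadjusted p under 0.05, the Kupffer cell genes Timd4 (-0.81 ± 0.32) and Clec4f (-0.50 ± 0.20), and 0 were higher, with Marco (0.59 ± 0.32) and Adgre1 (0.26 ± 0.26) nearest.

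The leukocyte and lymphocyte markers, with 3 of 5 at 0 in some mice, summed to 4.82 to 29.4 CPM in VDD-F1 and 8.15 to 12.8 in VDS-F1. Ptprc, a general leukocyte marker, held most of the sum (10.3 of 13.5 CPM in the VDD-F1 mean and 7.62 of 9.52 in VDS-F1). None of the 3 tested markers of this list had an unadjusted p under 0.05, with Ptprc (0.44 ± 0.29) and Cd79a (0.78 ± 0.57) nearest. The 9 hepatocyte markers had the largest sum of these lists, at 108452 to 126417 CPM in VDD-F1 and 97956 to 117346 in VDS-F1. Of these, 2 were lower at an unadjusted p under 0.05, Serpina1c (-0.60 ± 0.14), for which every VDD-F1 mouse lay below every VDS-F1 mouse (as for 0.570% of all genes tested), and Hnf4a (-0.29 ± 0.13). None was higher at that p, with Alb (0.24 ± 0.13) and Ahsg (0.23 ± 0.13) nearest. The part of any of these cell types in the difference was not tested.

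Relative to the summed stellate cell markers, the group means of the 10 genes kept their direction. Reln held the largest part of the sum, 150 of 294 CPM in the VDD-F1 mean and 141 of 266 in VDS-F1. Its log2-fold change was 0.09 ± 0.14 (SE, edgeR). Cygb, a stellate cell gene outside the sum, had a log2-fold change of 1.38. Whether the 10 genes rose beyond stellate cell genes in general was not tested. The mean log2 of that sum was higher in VDD-F1 by 0.12, and each difference in mean log2 CPM was smaller by this amount as a ratio, for example 1.70 and 1.58 for Eln. The log2 ratio of Mfap4 to the sum was higher in VDD-F1 by 1.96, that of Dpt by 1.77, of Eln by 1.58, of Fbln1 by 1.36 and of Lum by 1.28. It was higher by 0.91 for Fbln5, 0.86 for Fbn1, 0.56 for Bgn, 0.28 for Dcn and 0.051 for Efemp1. The groups overlapped for all 10 ratios. VDD2, VDD4, VDD5 and VDD6 lay above every VDS-F1 mouse in the ratio of Eln, Fbn1, Fbln1, Mfap4, Dpt and Bgn, with 5 mice doing so for Fbln1 and Mfap4, and no mouse did so for Dcn or Efemp1.

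**Figure D5:**
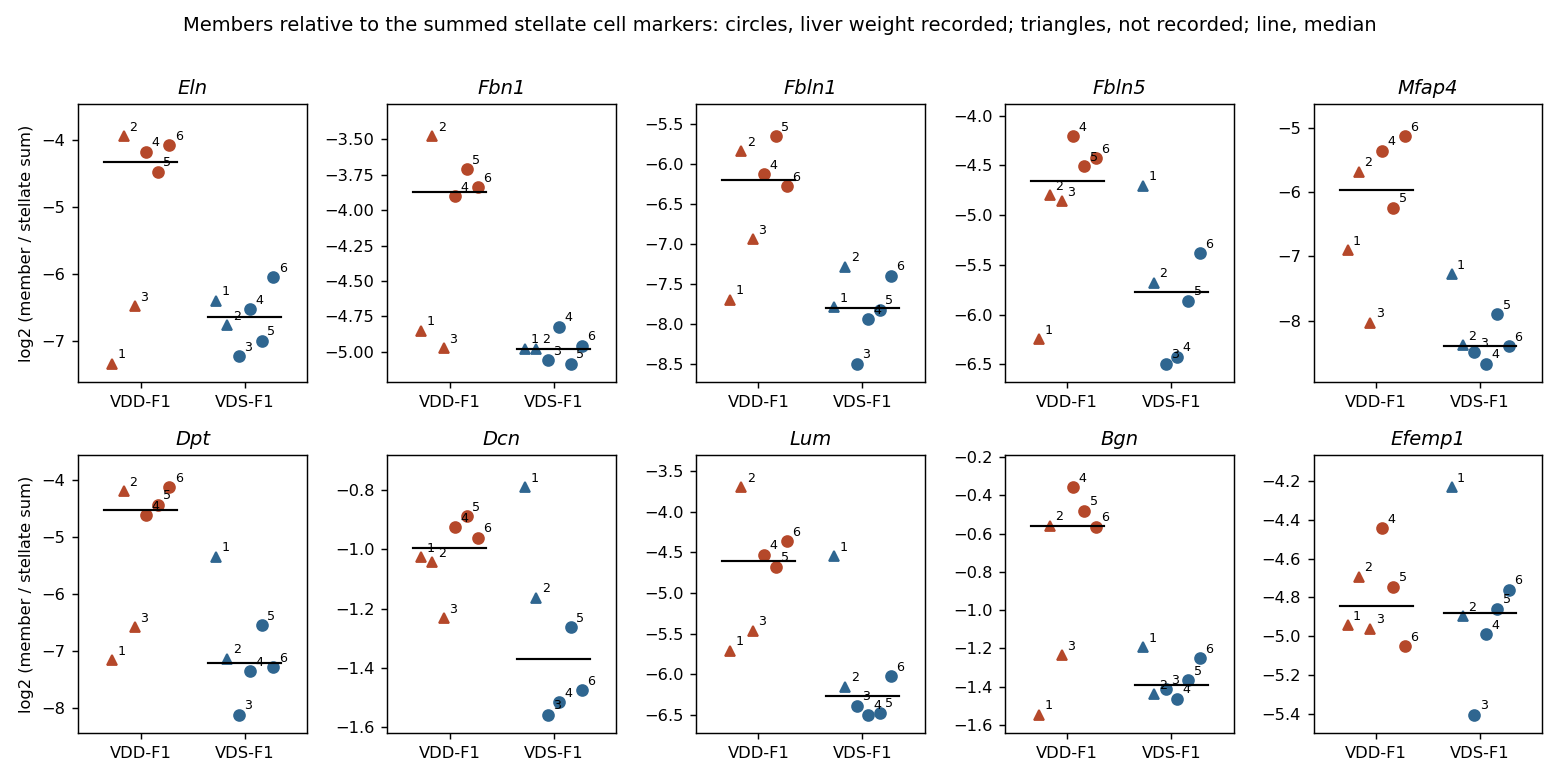
Log2 ratio of each gene's CPM to the summed CPM of 10 stellate cell markers (vertical axis) in each mouse, numbered as in the labels, with the group median as a line. VDD2, VDD4, VDD5 and VDD6 stay above all VDS-F1 mice for Eln, Fbn1 and Dpt, and the groups mix for Efemp1.

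Likeness of pattern was measured as the root mean square difference of centred log2 CPM over the 12 mice, with no test. Nearest to the mean of the 10 genes were Unc5b, a netrin receptor (0.114), Cygb, the stellate cell globin (0.179), Emp2, a membrane protein (0.205), Adamts5, a proteoglycan-cleaving protease (0.215), and Col1a2, a type I collagen chain (0.217). Their log2-fold changes ran from 1.28 for Unc5b to 1.46 for Emp2. Among the 10 genes themselves the nearest pair was Dcn and Efemp1 (0.217), followed by Fbn1 and Bgn (0.249).

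Of single genes, Serpinh1, the collagen chaperone, was nearest to Bgn (0.142), Col6a2, a type VI collagen chain, to Lum (0.270) and Abcc9, a potassium channel subunit of pericytes, to Dcn (0.105). Capn6 was nearest to Eln (0.338), Arhgap11a to Fbn1 (0.162), Ccdc120 to Fbln1 (0.186), Gabra3 to Fbln5 (0.249), Plxdc2 to Mfap4 (0.455), Ccdc3 to Dpt (0.362) and Ifi47 to Efemp1 (0.175). The measure grows with the size of a gene's own spread, so a gene that varies little, such as Dcn, finds a nearer partner than Mfap4.

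Each library held between 14275793 and 20815066 counts on genes. In VDS6, STAR assigned 11.1% of fragments to no exon on the strand counted, the highest share of the 12. Leaving VDS6 out gave 0 calls among the 10 genes by edgeR, in a fit that called 0.00% of 12472 genes higher, and a median log2-fold change of 1.30.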

How the data were processed

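Liver RNA-seq of 6 VDD-F1 and 6 VDS-F1 mice was read from the raw counts per gene that the authors deposited, made with STAR on mm10 (GRCm38) and GENCODE M15 after trimming, without normalization or pooling. The reverse-strand count was used, because the kit keeps the strand. IDs were matched without version to GENCODE M21 for symbols, positions and exon lengths (52489 of 52636).

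Genes were kept where the mean count over the 12 libraries reached 12. The groups were compared in edgeR 4.0.16 (TMM, quasi-likelihood, legacy form, R 4.3.3) with Benjamini-Hochberg adjustment over all genes tested. The paper's methods name DESeq2, run here (1.42.0) as an alternative with voom in limma 3.58.1, other filters and size factors, the count without strand, the set of mice, a replicate block and each mouse left out. Log2 CPM had a prior count of 2. FPKM is CPM per kilobase of merged exons. Scripts were tested on simulated data. Python 3.11.15 with pandas 2.3.3, NumPy 2.4.6 and matplotlib 3.10.9 made tables and figures.

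The 10 genes and the lists were chosen with earlier results of these data known. Named were all 10 genes, of each list those called by edgeR or DESeq2 (at most 4) or else the 2 of smallest p in each direction, and the nearest genes in pattern. Each mouse is 1 library, so p-values set the difference between the groups against the spread between mice. They take the mice as independent. The diet was given to the mothers and litters are not known, so p-values may be too small if littermates are alike. Depth of 14275793 to 20815066 counts per library left 10 counts for Mfap4 and Fbln1 in the lowest library, where a count is imprecise.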

Additional observations from a re-analysis of the deposited data

Results flagged for a closer look

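A mouse stood apart from the other 5 of its group in 3 of the 20 groups examined (10 genes in each of 2 diets). The measure was the ratio of its gap to the group's range. Chance gives about 1 in 20 for independent groups of normally distributed values. These 20 groups share the same 12 mice and were read in CPM without a log, so that rate may not hold for them. Lum was at 31.6 CPM in VDD2, with the other VDD-F1 mice between 4.47 and 12.7 CPM. Lum was at 12.1 CPM in VDS1, with the other VDS-F1 mice between 2.81 and 4.43 CPM. Dpt was at 6.95 CPM in VDS1, with the others between 0.892 and 2.84 CPM. Without VDS1 the log2-fold change was 1.97 ± 0.42 for Lum and 2.63 ± 0.57 for Dpt (SE), and without VDD2 that of Lum was 0.95 ± 0.40 (SE). None of these 3 fits passed edgeR's adjusted threshold.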

How the results depend on the processing

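The number of the 10 genes called was 0 with all 12 mice by edgeR. It was 5 by DESeq2, 6 by voom, 2 with no filter on low counts and 7 in the mice with a recorded liver weight, and it ran from 0 to 6 when 1 mouse was left out. It stayed at 0 under the other alternatives run. The number with an unadjusted p under 0.05 was 9 and became 0 in the 5 mice without a recorded weight, where fewer mice were fitted, and ran from 8 to 9 when 1 mouse was left out. The number of genes whose groups do not overlap was 0 and ran from 0 to 3 when 1 mouse was left out, with 3 without VDD1 (1.80% of all genes tested), 3 without VDS1 (1.13%) and 1 without VDD3 (1.05%). The median log2-fold change ran from 0.95 to 1.504 when 1 mouse was left out, and from 0.96 to 1.75 under the other alternatives. The difference in Efemp1 turned direction to -0.10 in the 5 mice without a recorded weight. Its ratio to the stellate markers did so when 1 mouse was left out, where it ran from -0.059 to 0.18. Of 240 single-gene values under alternatives, 209 kept their direction and side of the threshold, 30 kept the direction and passed the threshold, and 1 reversed. Genes of the other matrix lists called were 0 by edgeR, 10 by DESeq2, 9 by voom and 18 in the 7 mice. Over all 12453 genes tested, edgeR called 5 in either direction, DESeq2 253 and voom 252, and edgeR called 536 of 12369 in the 7 mice. Replicate numbers mark different mice. Over all genes 1 of the 6 same-numbered pairs had deviations correlated over 0.1, and 0 of 12 mice correlated best with its own number. A replicate block left 0 of the 10 genes called, 9 with an unadjusted p under 0.05 and a median of 1.28, and called 17 genes of the table in place of 5. Depth limits Mfap4 and Fbln1, with 10 counts in the lowest library.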

Other observations

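In the lists of matrix genes, 23 genes fell under the mean count of 12 and were not tested. In mean CPM, 11 of them were higher in VDD-F1, 5 were lower and 7 were at 0 in all mice. The following were named after their values were seen. Mfap2, a microfibril-associated glycoprotein, was at 0.32 CPM in the median VDD-F1 mouse and at 0 in the median VDS-F1 mouse. Vcan, which encodes the large proteoglycan versican, was at 0.49 and 0.12 CPM. Hmcn2, a hemicentin, was among the lower ones, at 0.606 and 0.615 CPM. Counting error alone is large at this depth, and the groups overlapped for each of these 3 genes.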
